A study of Mus musculus with 16 samples.

Results

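The copies described here are the long members of ERVK, a class of endogenous retroviruses of the mouse genome. They were chosen by their label in the table of single repeat copies, a length of at least 5000 bases and at least 5 reads in at least 2 libraries. Of 1555 ERVK copies of that length, 1217 met the rule, and 157 had no read in any library. The whole table lists 4929385 copies, 355433 of them ERVK. The values that chose the members were their own read counts over all libraries, whatever the group, so that they have reads is not a finding. The table names only the family, so whether a copy is an intracisternal A-particle (IAP), the best-known ERVK of this kind, could not be read from it, and the members are called ERVK copies throughout.

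Chromatin-associated RNA was sequenced from E14TG2a cells, a mouse embryonic stem cell line, cultured with LIF at 1000 U per ml, the MEK inhibitor PD0325901 at 1 µM and the GSK3 inhibitor CHIR99021 at 3 µM. Each of 8 groups held 2 libraries of cells ectopically expressing a histone demethylase, full-length or with an intrinsically disordered region (IDR) deleted. The groups were KDM4A full-length, KDM4A IDR-deleted, KDM4B full-length, KDM4B IDR-deleted, KDM6A full-length, KDM6A IDR-deleted, KDM6B full-length and KDM6B IDR-deleted. Sample titles write the deletion as del-cIDR and do not say that all disordered sequence was removed. No group lacked a construct, so all comparisons are between constructs and untreated cells enter none. The labels name no promoter or clone, do not say which residues the deletion took, and leave it unstated if the paired libraries were grown separately, so p-values measure the spread between these libraries.

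An intact ERVK provirus carries an internal part with the gag, pro and pol genes of a retrovirus between a pair of long terminal repeats (LTRs), of which the upstream one holds the promoter. In embryonic stem cells such proviruses are kept silent largely by zinc-finger proteins that recruit TRIM28 and SETDB1, which lay down methylation of histone H3 at lysine 9, together with DNA methylation. KDM4A and KDM4B remove methyl groups from lysines 9 and 36 of histone H3, and KDM6A (UTX) and KDM6B remove them from lysine 27.

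The members had a median length of 6423 bases. By length, 214 had 5000 to 5999 bases, 761 had 6000 to 6499, 153 had 6500 to 6999, 84 had 7000 to 7999 and 5 had more. A separate ERVK row of 250 to 650 bases on the same strand, the size of an LTR, lay within 20 bases on both sides of 849 members, on 1 side of 238 and on neither side of 130. The longest ERVK copy below the limit had 4996 bases, and the shortest member had 5000. On the read rule, 20 members had exactly 2 libraries with 5 reads (20 to 51 reads in all), and 32 copies failed it with exactly 1 such library.

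Copies of 1 family differ at few bases, which matters here because only reads placed with a mapping quality of at least 30 were counted. In 19 genes of the table at least 80% of the exon sequence lay inside a member, and 11 of their transcripts fell into 4 families that shared at least 50% of their 16-base words. A stretch from 3 such pairs is shown to let the reader see how alike separate copies are. The stretches come from GENCODE M21 transcripts (GRCm38, while the deposited positions are GRCm39), run 5′ to 3′, and have capitals where the copies of a pair differ.
Gm43041: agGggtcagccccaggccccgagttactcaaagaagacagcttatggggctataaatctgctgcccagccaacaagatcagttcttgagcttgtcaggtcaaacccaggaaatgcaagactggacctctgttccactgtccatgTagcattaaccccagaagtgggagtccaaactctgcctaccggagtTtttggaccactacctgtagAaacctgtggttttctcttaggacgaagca
Gm38046: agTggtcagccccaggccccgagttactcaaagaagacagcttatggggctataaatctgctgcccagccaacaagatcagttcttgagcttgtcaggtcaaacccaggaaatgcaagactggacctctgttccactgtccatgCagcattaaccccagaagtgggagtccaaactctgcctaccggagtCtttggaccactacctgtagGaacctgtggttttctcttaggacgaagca
Gm9864: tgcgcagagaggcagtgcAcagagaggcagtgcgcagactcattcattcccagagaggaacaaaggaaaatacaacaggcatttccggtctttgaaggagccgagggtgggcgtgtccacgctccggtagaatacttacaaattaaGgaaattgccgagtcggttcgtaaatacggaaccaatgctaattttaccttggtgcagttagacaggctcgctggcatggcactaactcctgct
Gm10040: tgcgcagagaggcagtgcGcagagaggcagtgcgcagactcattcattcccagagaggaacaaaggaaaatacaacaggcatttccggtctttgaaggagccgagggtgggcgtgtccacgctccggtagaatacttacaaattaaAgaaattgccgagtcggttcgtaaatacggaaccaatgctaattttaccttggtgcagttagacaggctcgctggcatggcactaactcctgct
Gm47547: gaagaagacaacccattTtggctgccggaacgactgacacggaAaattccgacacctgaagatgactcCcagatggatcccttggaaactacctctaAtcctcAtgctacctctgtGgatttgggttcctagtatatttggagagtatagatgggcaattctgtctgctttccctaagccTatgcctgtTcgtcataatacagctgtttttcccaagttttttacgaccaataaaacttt
Gm49083: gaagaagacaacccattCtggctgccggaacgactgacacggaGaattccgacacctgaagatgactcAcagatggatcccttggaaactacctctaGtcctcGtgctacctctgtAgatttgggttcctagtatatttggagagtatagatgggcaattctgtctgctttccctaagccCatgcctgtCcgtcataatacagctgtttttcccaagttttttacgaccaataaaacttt

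Gm43041 and Gm38046 differed at 8 of 550 aligned bases (98.5% identity), 4 of them in the 240 bases shown. Gm9864 and Gm10040 differed at 28 of 1641 (98.3%), and Gm47547 and Gm49083 at 46 of 2383 (98.1%). The pair with the fewest differences was unequal in level. The copy that holds Gm43041 averaged 20.2 CPM per kb (CPM are reads scaled to a fixed number of gene reads) over the 16 libraries, and the copy that holds Gm38046 averaged 2.11. The copies of the other 2 pairs were close to each other in level, 0.0807 and 0.0556 CPM per kb for Gm9864 and Gm10040, and 0.395 and 0.397 for Gm47547 and Gm49083. Of these 4, the copies that hold Gm47547 and Gm49083 both fell in KDM4A (log2 fold change -0.81 ± 0.23 and -1.31 ± 0.24 (SE), adjusted p = 0.0062 and 2.7e-05), and those of Gm9864 and Gm10040 passed none of the 4 deletion contrasts.

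Gene reads numbered 32739117 to 54890756 per library and repeat reads 20313223 to 47548396, of which 40963 to 116734 fell on members. CPM here counts reads against TMM-scaled gene reads. All 9 embryonic stem cell markers checked, among them Pou5f1, Sox2 and Nanog, had at least 1 CPM in every library. Reads of Kdm6a stood at 415 to 441 CPM in the KDM6A libraries and at 95.7 to 156 CPM in the others. For Kdm4a, Kdm4b and Kdm6b, the libraries with the matching construct did not all stand above the others. Kdm4a had 217 and 206 CPM in full-length and 300.4 and 292 in deleted KDM4A (0.49 ± 0.04, adjusted p = 3.5e-12), against 250.3 to 272 in the KDM6B libraries. Kdm4b had 85.4 to 103 CPM in the KDM4B libraries and 74.9 to 103 in the others. Kdm6b had 78.1 and 85.2 CPM in full-length and 93.0 and 96.4 in deleted KDM6B (0.21 ± 0.06, adjusted p = 0.0082, edgeR). The other libraries had 69.1 to 81.4 CPM of Kdm6b.

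Reads were very unequally spread over members. The member with the most reads took 7.60% of the 1235616 member reads, the first 10 took 33.2% and the first 100 took 71.3%, while the median member had 268 reads over all 16 libraries. Only 46 members averaged 1 CPM per kb or more.

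Summed over all 1217 members, RNA was highest with full-length KDM4B, at 2796 ± 78.7 CPM (SD, n = 2 here and in each group). It stood at 2052 ± 21.6 with full-length KDM4A, 1906 ± 28.9 with deleted KDM4B, 1895 ± 6.97 with deleted KDM6A, 1719 ± 58.1 with full-length KDM6A, 1433 ± 42.05 with deleted KDM4A, 1254 ± 2.24 with deleted KDM6B and 1182 ± 73.3 with full-length KDM6B. In this order deleted KDM4B and deleted KDM6A differed by less than the larger of their SDs, and so did the KDM6B groups. The other neighbours lay further apart than that. This order holds for gene scaling only. Scaled by ERCC spike-in reads, full-length KDM4B was still highest (4374 ± 189), but deleted KDM4B (2618 ± 81.8) stood above full-length KDM4A (2342 ± 58.8). Full-length KDM6B (826 ± 95.3) then stood above deleted KDM6B (672 ± 11.8). Full-length KDM6A (2274 ± 144) was above deleted KDM6A (2159 ± 10.5) by less than the larger SD. Sums were not tested, since the 10 members with the most reads alone took 33.2% of member reads. The sums that follow use gene scaling. Without the 10 members with the most reads, the sum went from 1384 ± 8.41 to 872 ± 5.68 CPM between full-length and deleted KDM4A, from 1829 ± 26.9 to 1245 ± 12.8 in KDM4B, from 1228 ± 29.9 to 1340 ± 10.97 in KDM6A, and from 797 ± 41.1 to 796 ± 1.98 in KDM6B. Fewer cells with active copies and less RNA per cell cannot be told apart in these bulk libraries.

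**Figure D1:**
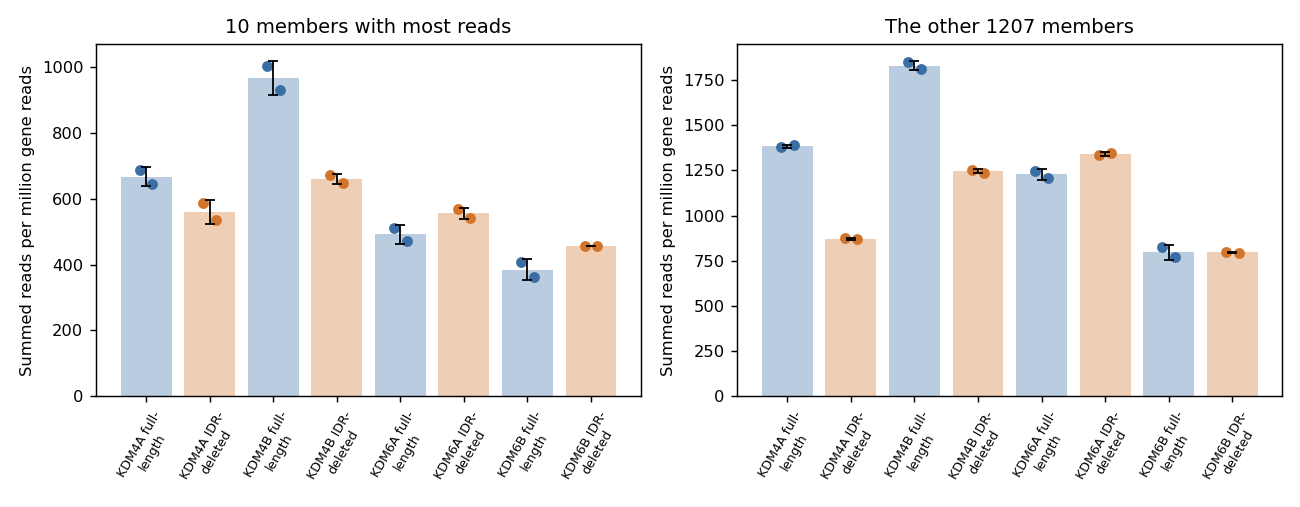
Summed level of ERVK members in each group, in CPM; bars are means, whiskers the SD and points the 2 libraries. For the members outside the first 10, full-length KDM4B stands highest at 1829 and both KDM6B groups lowest, at 797 and 796.

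The scale of the libraries bears on every direction below. ERCC spike-in reads made up 0.587% to 1.54% of gene reads in the group means. Scaled by them, the median log2 fold change (IDR-deleted minus full-length) of all repeat copies tested in the KDM4A, KDM4B, KDM6A and KDM6B contrasts was -1.10, -0.31, -0.16 and -0.73, against -0.45, -0.13, 0.05 and -0.35 with gene scaling. The members' medians were -0.68, -0.52, 0.15 and -0.06 with gene scaling, -1.33, -0.70, -0.06 and -0.43 with ERCC scaling, and -0.34, -0.38, 0.10 and 0.28 with TMM over the repeat copies. The members' median was thus below 0 under each of the 3 scalings for KDM4A and KDM4B, and changed sign between them for KDM6A and KDM6B. Against all copies, the members' median was lower in KDM4A and KDM4B and higher in KDM6A and KDM6B under all 3.

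Markers of other cell states moved with these groups. The summed level of 6 genes of the 2-cell-like state, a rare state of embryonic stem cells (the Zscan4 genes, Zfp352, Usp17la and Tcstv3), was 205 to 217 CPM in full-length and 54.9 to 57.3 in deleted KDM4A, 224 to 233 and 77.6 to 83.6 in KDM4B, 145 to 151 and 120.1 to 122 in KDM6A, and 35.5 to 36.8 and 41.2 to 42.1 in KDM6B. All 6 were found, 5 of them at 1 CPM or more in every library, and none was at 0 throughout. The 6 primitive endoderm markers summed to 22.6 CPM on average in full-length and 48.5 in deleted KDM4A, and to 15.8 and 31.1 in KDM4B. The 5 trophectoderm markers went from 14.2 to 25.8 CPM in KDM4A and from 10.2 to 18.7 in KDM4B, the 7 fibroblast markers from 5.17 to 8.31 in KDM4A, and the 9 stem cell markers from 2289 to 1909 in KDM4B, none of them with overlapping libraries. The lists did not all move alike. Neural markers went from 116 to 131 CPM in KDM4A and from 132 to 157 in KDM6B, but from 118 to 94.5 in KDM4B. Primitive endoderm markers went from 23.3 to 20.7 CPM in KDM6A and from 40.4 to 34.5 in KDM6B. Libraries did not overlap in any of these. Over all libraries, fibroblast markers summed to 3.62 to 8.36 CPM, trophectoderm markers to 9.55 to 31.99 and neural markers to 82.2 to 159. The part of these cell states in the results below was not tested.

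The 8 members with the highest level per kb are described first. The first of them, chr5:60106612-60113433 (minus strand), overlaps an exon of the gene model Gm43041 (0.48 ± 0.17 in KDM4A) and has LTR rows of 318 bases on both sides. Its level was 133 and 124 CPM in full-length and 201 and 191 in deleted KDM4A, 206 and 181 against 143 and 131 in KDM4B, 125 and 116 against 129 and 119 in KDM6A, and 93.3 and 82.6 against 118 and 117 in KDM6B. The groups did not overlap except in KDM6A. It was higher in deleted KDM4A (log2 fold change 0.61 ± 0.09 (SE), adjusted p = 5.9e-08, edgeR), although ERCC scaling turned this to -0.04, it fell in KDM4B (-0.50 ± 0.09, adjusted p = 2.5e-05), and it was higher in deleted KDM6B (0.42 ± 0.09, adjusted p = 0.0013), where ERCC scaling left 0.03. The related copy that holds Gm38046, chr1:194937241-194944061, went from 17.8 and 17.3 to 9.17 and 10.5 CPM in KDM4A and fell (-0.84 ± 0.14, adjusted p = 4.7e-06). In KDM4B it stood at 15.8 and 17.2 against 17.5 and 16.9 CPM.

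The second, chr4:19149764-19156611 (plus strand), lies outside genes, 27199 bases from Cnbd1, with LTR rows of 318 bases on both sides. With full-length protein it had 169 and 151 CPM in KDM4A, 263 and 226 in KDM4B, 52.5 and 45.6 in KDM6A and 32.0 and 24.5 in KDM6B. With the deletion these became 79.4 and 68.1, 91.3 and 82.5, 74.0 and 64.5, and 61.4 and 66.1. It therefore spanned a wide range among the full-length groups and a narrow one among the deleted groups. It fell in KDM4A (-1.12 ± 0.10, adjusted p = 5.0e-14) and KDM4B (-1.49 ± 0.10, adjusted p = 5.4e-19), and was higher in deleted KDM6A (0.49 ± 0.10, adjusted p = 0.0093) and KDM6B (1.18 ± 0.10, adjusted p = 4.7e-13). The KDM6A call was lost with ERCC scaling (0.28) and with TMM over copies (0.44).

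The third, chr9:59277789-59282849 (minus strand), is 5061 bases long, lies 12692 bases from Arih1 and has no LTR row beside it. It went from 75.8 and 75.5 to 36.1 and 39.9 CPM in KDM4A and fell (-0.99 ± 0.10, adjusted p = 1.9e-13), while in KDM4B it had 99.3 and 100.3 against 88.7 and 95.2 CPM (-0.12 ± 0.09). In KDM6B it was higher, from 45.1 and 40.3 to 63.9 and 63.4 CPM (0.58 ± 0.10, adjusted p = 4.5e-05, and 0.19 and not called with ERCC scaling). The copy at chrY:58553338-58559772, in a stretch 21773 bases from the gene model Gm21405, fell in KDM4A (52.7 and 55.4 to 29.3 and 29.6 CPM, -0.88 ± 0.10, adjusted p = 1.9e-10) and in KDM4B (97.2 and 103.5 to 42.9 and 42.6 CPM, -1.23 ± 0.10, adjusted p = 5.4e-16). In the KDM6 groups the Y copy stayed within 24.4 to 39.2 CPM and passed no test.

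The copy at chr4:147551633-147557436, 19438 bases from the zinc-finger gene Zfp982, fell in KDM4A from 47.8 and 43.1 to 26.5 and 25.4 CPM (-0.81 ± 0.11, adjusted p = 1.2e-08). In KDM6A it rose from 40.3 and 36.3 to 59.99 and 58.3 CPM (0.63 ± 0.11, adjusted p = 3.7e-04, and 0.41 and not called with ERCC scaling). In KDM4B it stood at 51.7 and 49.3 against 53.0 and 50.7 CPM. Other repeats within 10000 bases of this copy were read at 17.3 CPM per kb upstream and 9.65 downstream, above its own 6.97. Its surroundings were thus more densely read than the copy.

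The last 3 of the 8 varied less. The copy at chr11:19359453-19365892, 24745 bases from Gm12026, ranged from 31.0 to 64.1 CPM over the 16 libraries and fell in KDM4A (-0.45 ± 0.11, adjusted p = 0.0014, and -0.11 and not called with TMM over copies). The copy at chr12:76269436-76275893, in an intron of the testis-expressed gene Tex21 on the opposite strand, ranged from 50.5 to 76.8 CPM and passed none of the 4 contrasts. The copy at chr7:42884595-42891051 overlaps an exon of EU599041 and went from 32.1 and 33.3 to 42.5 and 40.5 CPM in KDM4A (0.34 ± 0.10, adjusted p = 0.011), a direction that ERCC scaling turned into a fall (-0.31, adjusted p = 0.022). The gene EU599041 averaged 83.6 and 81.6 CPM in these groups (-0.03 ± 0.05).

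**Figure D2:**
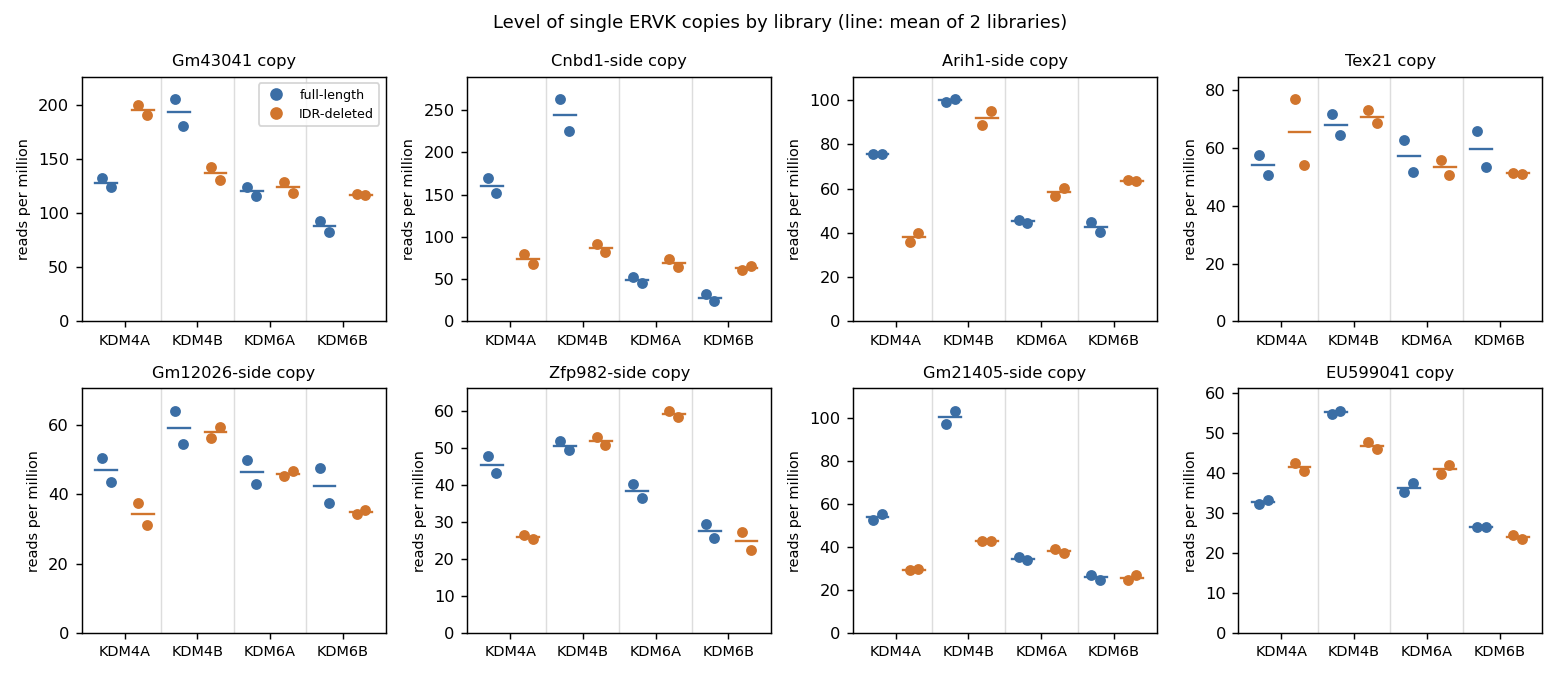
Level of the 8 members with the highest level per kb, in CPM; each point is 1 library and each line the mean of 2. The copy near Cnbd1 runs from 24.5 to 263 across libraries, the copy in Tex21 from 50.5 to 76.8.

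The KDM4A contrast asks how RNA from these copies differs when KDM4A lacks the deleted IDR. Falls far outnumbered rises: of 1151 members tested, 180 fell and 9 rose at an adjusted p under 0.05, which is 15.6% and 0.782%, where 16.1% and 3.21% of all 728423 repeat copies tested were called lower and higher. The share that fell was near this background. The remaining 66 members had too few reads for the test. The log2 fold change was below 0 in 995 of the 1151, and its median was -0.68 against -0.45 over all copies. Of the 100 members with the most reads, 51 fell and 6 rose. Of the 651 members tested that ranked below the first 500, which had a median of 213 reads, 35 fell and none rose (0 of 651). The medians of these bins were -0.51 and -0.67, so calls thinned out as reads became fewer, while the median was no nearer to 0. With ERCC scaling 590 fell and 3 rose, and with TMM over copies 88 fell and 18 rose, all 88 of them among the 180. Of all copies, 39.9% were called lower and 0.730% higher with ERCC scaling, and 8.79% and 6.48% with TMM over copies. The rises were 4.76% of calls with gene scaling and 16.98% with TMM over copies.

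Among members with a mean of at least 20 reads per library in the higher group, the largest fall in KDM4A was at chr3:129551694-129557143 (plus strand, 5450 bases), which overlaps an exon of the noncoding gene model 6330410L21Rik and has an LTR row of 484 bases downstream. It had 57.3 and 61.6 CPM with full-length and 1.31 and 1.06 with deleted KDM4A (-5.64 ± 0.16, adjusted p = 6.9e-43). It also fell in KDM4B, from 28.4 and 27.3 to 11.4 and 12.1 CPM (-1.25 ± 0.12, adjusted p = 1.7e-12). It rose in KDM6A, from 18.7 and 15.7 to 31.9 and 31.0 CPM (0.87 ± 0.12, adjusted p = 8.0e-06), and in KDM6B it had 2.64 and 2.75 against 4.52 and 3.55 CPM (0.58 ± 0.14, adjusted p = 0.0082, and 0.20 and not called with ERCC scaling). Its host gene moved alike, at -5.29 ± 0.19, -1.21 ± 0.14, 0.94 ± 0.14 and 0.93 ± 0.19. The copy and the gene lie on the same strand, so their reads cannot be told apart where the exon overlaps the copy. The 2 are therefore not separate readings.

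The other 2 named falls were of sparsely read copies. The copy at chrX:9463230-9468895, 23213 bases from the nearest gene, had 117 reads with full-length and 2 with deleted KDM4A, a ratio of 40.2 (95% counting interval 10.9 to 336). In KDM4B it went from 3.52 and 3.63 to 0.190 and 0.0803 CPM and fell as well (-4.71 ± 0.45, adjusted p = 2.9e-13). The copy at chr17:20312033-20317756, 9470 bases from Vmn2r-ps126, had 74 reads against 2 in KDM4A, a ratio of 25.5 (6.80 to 214), and passed no other contrast. These intervals cover counting error only and treat the mates of a fragment as separate reads.

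The 3 named rises in KDM4A began with chr13:57113543-57118693, 34782 bases from Gm22777, which went from 0.489 and 0.607 to 2.45 and 2.29 CPM (2.10 ± 0.36, adjusted p = 4.5e-06). The copy at chr14:19678750-19686283, 7534 bases long and 50 bases from the RIKEN gene 4930469B13Rik, went from 0.932 and 0.749 to 2.65 and 3.39 CPM (1.84 ± 0.29, adjusted p = 1.1e-06). Both also rose in KDM4B (2.07 ± 0.38 and 2.86 ± 0.36, adjusted p = 6.9e-05 and 6.8e-09), against the run of the members there. They rose in KDM6B too (1.31 ± 0.32 and 1.90 ± 0.27, adjusted p = 0.0075 and 2.5e-06), where rises outnumbered falls with gene scaling. The third, chr13:25191709-25199376, lies in an intron of Mrs2, a mitochondrial magnesium channel gene on the opposite strand, and went from 4.68 and 4.09 to 11.3 and 11.6 CPM (1.38 ± 0.17, adjusted p = 6.1e-10). Mrs2 rose by 0.52 ± 0.06 (SE, adjusted p = 2.3e-09), from a mean of 48.0 to 68.8 CPM. Repeats upstream and downstream of this copy were read at 5.46 and 1.399 CPM per kb, the copy at 0.776.

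In the KDM4B contrast 74 members fell and 9 rose (6.43% and 0.782%), where 3.67% and 1.05% of all copies were called lower and higher. The log2 fold change was below 0 in 961 of 1151, with a median of -0.52 against -0.13 over all copies. Of the 100 members with the most reads, 29 fell and 6 rose. With ERCC scaling 128 fell and 9 rose, and with TMM over copies 55 fell and 11 rose. Of all copies, 6.86% were called lower and 0.647% higher with ERCC scaling, and 2.38% and 1.65% with TMM over copies. Without replicate 2 of the deleted group 42 fell, and without replicate 1 of the full-length group 49. Of the 180 members that fell in KDM4A and the 74 that fell in KDM4B, 49 fell in both, which is 27.2% of the first and 66.2% of the second. Over all copies the same overlap was 16.5% and 72.0%, and no test compared these shares. Only 3 rose in both, 4 fell in KDM4A and rose in KDM4B, and 2 rose in KDM4A and fell in KDM4B.

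The named falls in KDM4B besides the X copy were of 2 rarely read copies. The copy at chr11:6797412-6803454, 8085 bases from Gm11984, had 1.83 and 2.60 CPM with full-length and 0.0633 and 0.0602 with deleted KDM4B (-5.10 ± 0.72, adjusted p = 6.0e-07). The copy at chr15:17089252-17095260, 12227 bases from Gm49128, went from 1.66 and 1.45 CPM to 0.169 CPM and no read (-4.18 ± 0.72, adjusted p = 2.3e-05). In KDM4A these copies were lower as well, with 58 against 2 reads (a ratio of 19.95, 5.28 to 169) and with 32 against no reads. Counting 3 reads as the floor of the group, the latter was 7.34-fold lower, a ratio that takes the 32 reads as exact. The third rise in KDM4B, after the copies near Gm22777 and 4930469B13Rik, was chr3:28929784-28937321, 7538 bases long, which overlaps the gene model Gm37924. It went from 1.27 and 1.76 to 5.74 and 6.67 CPM (2.03 ± 0.20, adjusted p = 3.5e-13), and in KDM6B from 4.62 and 4.27 to 10.3 and 9.98 CPM (1.19 ± 0.17, adjusted p = 2.5e-06). Gm37924 had 2.18 ± 0.34 and 1.53 ± 0.27. Of its 3647 exon bases 3361 lie inside the copy, so gene and copy are not separate readings.

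The deletion effects of KDM4A and KDM4B were then set against each other in the same fit. They differed at 40 members (3.48%, where 3.83% of all copies were called), 30 of them lower and 10 higher in KDM4A. After the 6330410L21Rik copy (difference -4.39 ± 0.20, adjusted p = 1.4e-28), the smallest p belonged to chr8:83475440-83481930 (6491 bases, in an intron of Gm9655 on the opposite strand). This copy moved in opposite directions: from 28.7 and 29.8 down to 9.44 and 10.6 CPM in KDM4A (-1.55 ± 0.13, adjusted p = 2.9e-16) and from 10.7 and 10.3 up to 22.2 and 20.9 CPM in KDM4B (1.03 ± 0.13, adjusted p = 3.0e-09). The difference was -2.58 ± 0.18 (adjusted p = 3.1e-18). Gm9655 had -1.76 ± 0.30 in KDM4A and 0.47 ± 0.27, not past the threshold, in KDM4B.

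**Figure D3:**
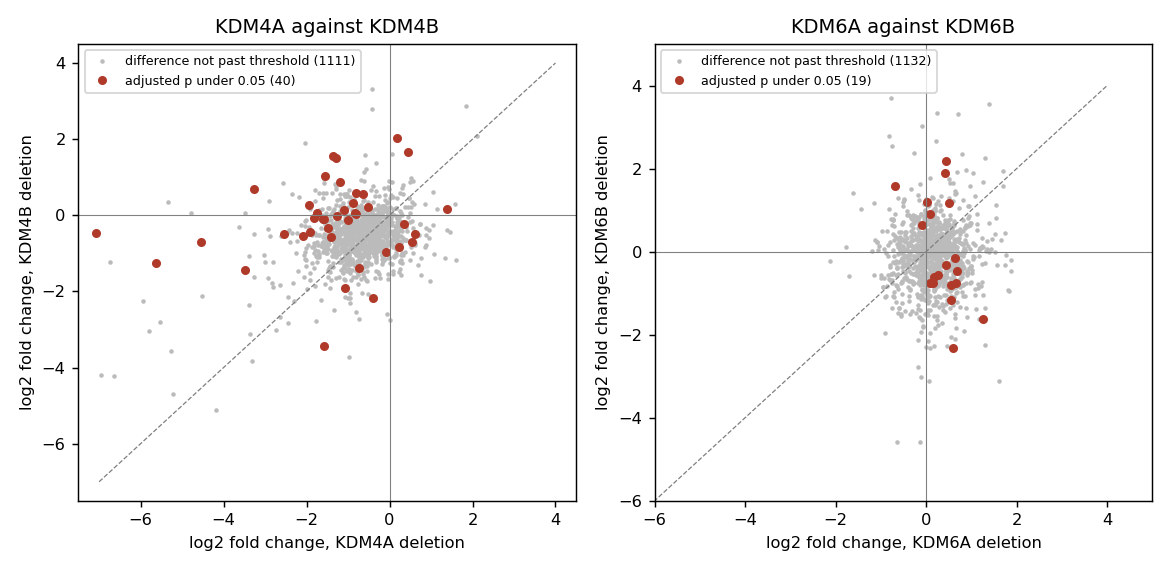
Log2 fold change (IDR-deleted minus full-length) of each member tested in KDM4A against KDM4B and in KDM6A against KDM6B; red points are members whose 2 effects differed at an adjusted p under 0.05 (40 and 19), and fold changes of copies with no read in a group depend on the fit. Points on the broken line have equal effects.

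In the KDM6A contrast few members passed: 8 rose and 2 fell (0.695% and 0.174%), where 0.109% and 0.0415% of all copies were called higher and lower. The median was 0.15 against 0.05 over all copies, and -0.06 with ERCC scaling, which left 2 rises and 5 falls. With TMM over copies 4 rose and 2 fell. Of all copies, 0.0298% were called higher and 0.148% lower with ERCC scaling, and 0.0682% and 0.0571% with TMM over copies. Rises were 80% of calls with gene scaling, 28.6% with ERCC scaling and 66.7% with TMM over copies. Leaving out any 1 of the 4 KDM6A libraries moved the rises to between 1 and 4 and the falls to 0 or 1, so these counts rest on both libraries of each group.

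The largest rise in KDM6A was at chr9:72151482-72156725, 7593 bases from Gm25163, from 0.813 and 1.23 to 2.57 and 2.73 CPM (1.39 ± 0.33, adjusted p = 0.041). The copy at chr7:26190680-26195679, exactly at the length limit of 5000 bases and 15113 bases from the oocyte gene Nlrp4a, rose from 3.14 and 3.23 to 6.12 and 7.33 CPM (1.08 ± 0.20, adjusted p = 0.0015). Both had fallen with the KDM4 deletions, the first by 3.48 and 1.45 and the second by 2.22 and 1.45 on the log2 scale (adjusted p = 1.2e-08, 0.0023, 4.6e-11 and 6.8e-08). In KDM6B the copy near Nlrp4a rose too, from 0.412 and 0.542 to 1.48 and 0.961 CPM (1.34 ± 0.28, adjusted p = 0.0015). The third rise, chr7:95967153-95973582, lies in an intron of Tenm4, a cell adhesion gene on the opposite strand, and went from 2.41 and 2.23 to 5.45 and 4.32 CPM (1.07 ± 0.22, adjusted p = 0.010). Tenm4 changed the same way in KDM4A, KDM4B and KDM6A (-1.10 ± 0.04, -0.74 ± 0.04 and 0.82 ± 0.04; the copy -1.75 ± 0.26, -1.09 ± 0.22 and 1.07 ± 0.22), while in KDM6B Tenm4 rose (0.30 ± 0.04, adjusted p = 1.7e-06) and the copy had -0.12 ± 0.28. Repeats beside it were read at 3.33 and 7.02 CPM per kb beside the copy's 0.400. The rises near Gm25163 and in Tenm4 were not called with ERCC scaling (1.18 and 0.85), nor was the former with TMM over copies (1.34).

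Both falls in KDM6A lay in genes that were also lower. The copy at chr4:46576472-46583716, in an intron of the coronin gene Coro2a on the opposite strand, went from 2.78 and 3.94 to 0.670 and 1.34 CPM (-1.71 ± 0.26, adjusted p = 3.8e-05), and Coro2a fell by 1.18 on the log2 scale (SE 0.25). In KDM4A and KDM6B, where the copy had -0.05 ± 0.27 and -0.59 ± 0.26 and was not called, Coro2a rose (0.69 ± 0.25 and 0.93 ± 0.22, adjusted p = 0.020 and 0.0020). The copy at chr10:83296393-83301766 overlaps an exon of D10Wsu102e on the opposite strand and went from 20.3 and 21.3 to 14.3 and 13.8 CPM (-0.56 ± 0.12, adjusted p = 0.022). D10Wsu102e had -0.45 ± 0.03 there. In KDM4A this copy fell (-0.48 ± 0.13, adjusted p = 0.0038, and -0.13 and not called with TMM over copies), while D10Wsu102e had 0.12 ± 0.03.

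In the KDM6B contrast 20 members rose and 14 fell (1.74% and 1.22%), where 0.336% and 3.97% of all copies were called higher and lower. The median of -0.06 stood above the -0.35 of all copies. With ERCC scaling 13 rose and 94 fell, and with TMM over copies 34 rose and none fell (0), so rises were 58.8%, 12.1% and 100% of calls. Of the 20 rises, 12 were called with ERCC scaling and all 20 with TMM over copies. All 14 falls were called with ERCC scaling and none (0) with TMM over copies. Without replicate 1 of the full-length group 13 rose and 3 fell. Without its replicate 2, some members lost their call and others gained one, as in the fits that follow. Without replicate 1 of the deleted group 11 rose and 8 fell, and without its replicate 2, 16 rose and 6 fell.

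Rises in KDM6B included rarely read copies outside genes. The copy at chr1:164805910-164813243, 15516 bases from 1700029M03Rik, went from 0.0650 and 0.135 to 0.370 and 0.686 CPM (2.38 ± 0.63, adjusted p = 0.015). The copy at chr15:97523854-97531376, 41602 bases from Rpap3, went from 0.368 and 0.519 to 2.22 and 1.84 CPM (2.19 ± 0.35, adjusted p = 2.5e-05) and rose in KDM4A too (1.05 ± 0.33, adjusted p = 0.017, and 0.40 and not called with ERCC scaling).

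Each of the 3 named falls in KDM6B lost its call with TMM over copies. The copy at chr9:54978489-54983572, 3742 bases from Gm47887, went from 1.76 and 2.12 to 1.04 and 0.706 CPM (-1.15 ± 0.27, adjusted p = 0.0048). The copy at chr12:80464384-80470834, in an intron of Dcaf5 on the opposite strand, went from 1.80 and 1.31 to 0.826 and 0.843 CPM (-0.90 ± 0.28, adjusted p = 0.049). The copy at chr18:49822728-49829164, 48 bases from the tRNA modification gene Dtwd2, went from 2.67 and 2.33 to 1.15 and 1.71 CPM (-0.80 ± 0.22, adjusted p = 0.025), and also fell in KDM4A and KDM4B (-1.57 ± 0.22 and -0.88 ± 0.19, adjusted p = 1.0e-07 and 0.0014). Beside the copy in Dcaf5, repeats were read at 2.19 and 2.51 CPM per kb upstream and downstream, and the copy at 0.318.

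The effects of the KDM6A and KDM6B deletions differed at 19 members (1.65%, where 2.18% of all copies were called), 12 higher and 7 lower in KDM6A. The smallest p belonged to the copy near Zfp982 (0.78 ± 0.15, adjusted p = 0.0011), which had 29.3 and 25.7 against 27.2 and 22.3 CPM in KDM6B. The count was 5 without replicate 1 and 10 without replicate 2 of full-length KDM6A, 12 and 8 without those of deleted KDM6A, and 9 without replicate 1 of full-length KDM6B. Next came the Gm37924 copy (-1.17 ± 0.25, adjusted p = 0.0031), which had 4.54 and 4.68 against 5.39 and 4.01 CPM in KDM6A.

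Over all 8 groups together, 502 members differed (43.6%), where 47.5% of all copies were called. Among these 502, the highest group mean was in full-length KDM4B for 302, in deleted KDM6A for 83, in full-length KDM4A for 57, in full-length KDM6A for 34, in deleted KDM4B for 11, in deleted KDM4A for 8, in deleted KDM6B for 7 and in full-length KDM6B for none (0). The lowest mean was in deleted KDM6B for 213, in full-length KDM6B for 143 and in deleted KDM4A for 126. These counts use gene scaling alone and were not made for all copies. Whether they are particular to the members was not tested. Among the 4 full-length groups alone, 313 members differed (27.2%, where 23.1% of all copies were called), and 202 or 185 did without replicate 1 or 2 of full-length KDM6B.

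The 4 members with the smallest p over the 8 groups show how far copies can range. The copy at chr13:23354648-23360759, 1925 bases from the pheromone receptor gene Vmn1r220, had 109.8 and 99.8 CPM with full-length KDM4B, 30.7 and 32.0 with full-length KDM4A, 11.5 and 10.4 with full-length KDM6A and 3.92 and 4.09 with full-length KDM6B. With the deletions it had 14.4 and 15.0 in KDM4B, 5.80 and 5.75 in KDM4A, 15.96 and 16.2 in KDM6A and 4.85 and 3.49 in KDM6B. The 4 full-length groups did not overlap, and the test over 8 groups gave an adjusted p of 1.2e-52. It fell in KDM4A (-2.44 ± 0.13, adjusted p = 2.4e-26) and KDM4B (-2.83 ± 0.12, adjusted p = 5.0e-31), and rose in KDM6A (0.55 ± 0.12, adjusted p = 0.022, not called with ERCC scaling or TMM over copies).

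The copy at chr9:84766305-84772597 lies 1 base from the gene model Gm28625 and was high with full-length KDM4B alone, at 22.9 and 22.3 CPM. All other libraries had between 1.12 and 6.58 CPM, the upper end being full-length KDM4A at 5.29 and 6.58. It fell in KDM4B (-3.44 ± 0.19, adjusted p = 1.9e-25) more than in KDM4A (-1.57 ± 0.20, adjusted p = 1.8e-09), a difference of 1.87 ± 0.27 (adjusted p = 1.0e-06). The 6330410L21Rik copy had another order, with full-length KDM4A highest (57.3 and 61.6 CPM), then deleted KDM6A (31.9 and 31.0) and full-length KDM4B (28.4 and 27.3). The copy near Cnbd1 was the fourth.

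**Figure D4:**
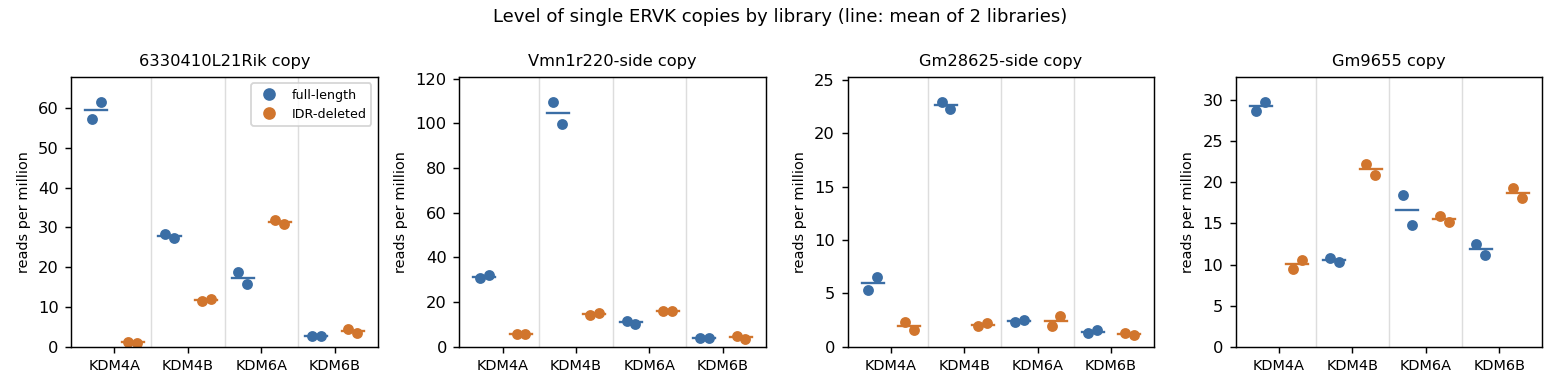
Level of 4 members with large differences between groups, in CPM; each point is 1 library and each line the mean of 2. The copies near Vmn1r220 and Gm28625 are highest with full-length KDM4B, the copy in 6330410L21Rik with full-length KDM4A, and the copy in Gm9655 moves down in KDM4A (from 28.7 and 29.8 to 9.44 and 10.6) and up in KDM4B (from 10.7 and 10.3 to 22.2 and 20.9).

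Members were also described by length. The 75 members tested of 7000 bases or longer were read at a median of 0.133 CPM per kb, the 753 of 6000 to 6499 bases at 0.0607. In KDM6B, 10 of the 75 rose and 3 fell, and of the 753, 1 rose and 7 fell. Their medians were 0.16 and -0.10 with gene scaling, and the sign of such values depends on the scaling in KDM6B. In KDM4A, 28 of the 75 fell and 5 rose (median -0.76), and 94 of the 753 fell and 1 rose (-0.70). In KDM4B, 10 fell and 5 rose among the 75 (-0.29), and 33 fell and 1 rose among the 753 (-0.55). The longer copies were more deeply read, with a median of 681 against 271 reads, and calls follow depth, so these shares are not compared by a test. The copies near 4930469B13Rik, in Gm37924 and near Rpap3, of 7523 to 7538 bases, are among the rises described above.

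**Figure D5:**
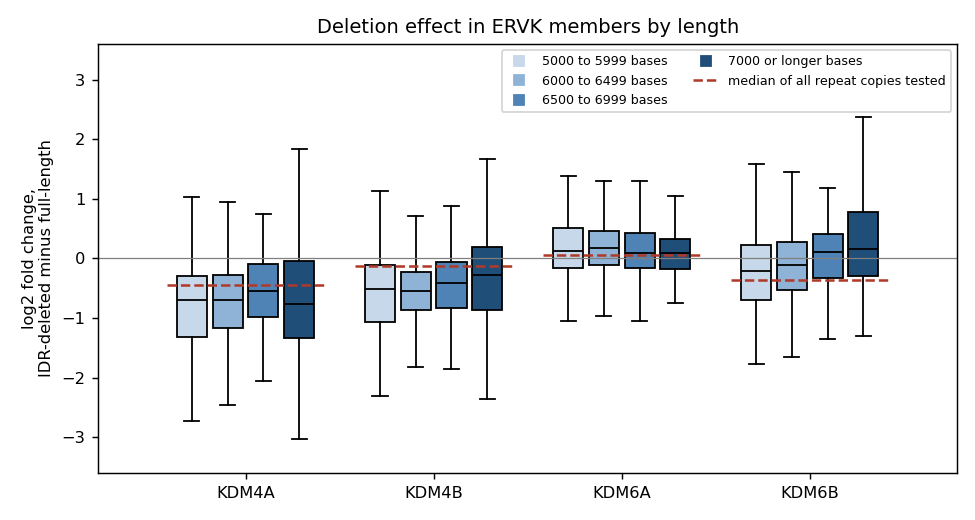
Log2 fold change of the members tested, by length and contrast; boxes span the quartiles with the median as a line, whiskers reach 1.5 quartile ranges, and red lines give the median of all repeat copies tested. With gene scaling the KDM6B medians run from -0.21 in the shortest class to 0.16 in the longest, above the -0.35 of all copies; other scalings shift all boxes of a contrast.

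Medians were close inside and outside genes in KDM4A. Of the 1217 members, 913 lay outside the genes of the table, 304 overlapped a gene and 69 an exon. In KDM4A, the 859 tested outside genes had a median of -0.69, the 225 in introns only -0.68 and the 67 over exons -0.66, and 14.7%, 15.1% and 29.9% of them fell (126, 34 and 20). In KDM4B the medians were -0.53, -0.43 and -0.54, and in KDM6B -0.03, -0.22 and 0.06. A copy in an intron may be read from unspliced RNA of its host. For the 164 members tested that lie in introns of 1 tested gene, the medians in contrast order were -0.69, -0.46, 0.13 and -0.24, where their hosts' medians were -0.18, -0.04, -0.0081 and 0.02. Member and host had the same sign in 65.9%, 61.6%, 53.0% and 51.2% of pairs. Across these members the correlation with the host's log2 fold change was only 0.18, 0.18, 0.14 and 0.03. Medians of members and hosts were both below 0 in KDM4A and KDM4B, which by itself raises the share of same signs. Of 227 intronic members in 1 gene, 171 had the strand opposite to it and 56 the same.

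With gene scaling, the summed LTR rows beside members were lower with the deletion in KDM4A and KDM4B and higher in KDM6A. The members' sums were likewise, and these sums were not tested. For the 849 members with LTR rows on both sides, the upstream LTR rows together went from 84.5 ± 0.896 to 37.4 ± 0.320 CPM in KDM4A (SD, n = 2), the downstream rows from 53.3 ± 1.95 to 29.7 ± 0.141, and the members themselves from 1409 ± 23.0 to 1080 ± 41.5. In KDM4B the upstream rows went from 95.1 ± 13.4 to 47.99 ± 0.691 CPM, the downstream rows from 70.6 ± 0.818 to 48.96 ± 0.832 and the members from 1974 ± 57.0 to 1300.3 ± 11.5. In KDM6A the same rows went from 49.2 ± 0.771 to 53.2 ± 1.60, from 51.9 ± 1.72 to 61.5 ± 1.03 and from 1194 ± 38.8 to 1283 ± 6.04 CPM. In KDM6B the upstream rows stood at 35.5 ± 1.98 and 34.7 ± 1.55, the downstream rows at 30.98 ± 1.28 and 26.8 ± 3.17, and the members at 841 ± 54.5 and 899 ± 5.90 CPM. Per length, over all libraries, the upstream rows averaged 183 CPM per Mb, the downstream rows 157 and the members 225.

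Other long repeats give the setting. In KDM4A, 601 of 614 ERVL copies of 5000 bases or longer fell, at a median of -1.28, and of 11465 such L1 copies 4577 fell, at -0.78. In KDM4B the counts were 579 and 1649, at medians of -0.89 and -0.48. In KDM6A, 32 of the L1 copies rose and 7 fell (median 0.04), and 0 ERVL copies were called (0.14). In KDM6B, 359 of the L1 copies rose and 149 fell (0.27), and 2 of the ERVL copies rose and 35 fell (-0.25). No test compared these classes. The 41921 shorter ERVK copies tested had medians of -0.71, -0.21, 0.08 and -0.29 in the 4 contrasts, where the members had -0.68, -0.52, 0.15 and -0.06.

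The genes known to silence endogenous retroviruses in embryonic stem cells were read from the gene table. Of 49 such genes tested, 24 rose and 18 fell in KDM4A (of all 31057 genes 24.6% rose and 25.9% fell), 9 rose and 22 fell in KDM4B (18.6% and 17.6%), 14 rose and 2 fell in KDM6A (8.3% and 8.65%), and 8 rose and 7 fell in KDM6B (9.89% and 10.7%). Their medians were 0.07, -0.09, 0.09 and 0.03, and those of all genes -0.05, 0.01, 0.00 and 0.00. In KDM4A the HUSH subunit Mphosph8 rose from 113 and 109.7 to 226 and 244 CPM (1.08 ± 0.05, adjusted p = 3.6e-20) and the nuclear ATPase Morc3 rose (0.64 ± 0.04, adjusted p = 1.0e-17). The SETDB1 partner Atf7ip (-0.64 ± 0.04, adjusted p = 9.4e-18) and the H3K9 methyltransferase Suv39h1 (-1.14 ± 0.07, adjusted p = 1.8e-17) fell.

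In KDM4B, Atf7ip fell from 475 and 482 to 216 and 217 CPM (-1.14 ± 0.04, adjusted p = 1.7e-24). Trim24, a corepressor related to TRIM28 (-0.84 ± 0.04, adjusted p = 5.5e-21), the chromatin remodeller Smarcad1 (-0.87 ± 0.04, adjusted p = 6.2e-18) and the retroelement silencing factor Resf1 (-0.73 ± 0.04, adjusted p = 8.5e-18) fell too. In KDM6A the 4 genes with the smallest p were the corepressor Trim28 (0.27 ± 0.03, adjusted p = 1.6e-07), the DNA methyltransferase Dnmt3b (0.42 ± 0.06, adjusted p = 4.2e-07), Suv39h1 (0.44 ± 0.06, adjusted p = 1.8e-06) and the HP1 gene Cbx5 (0.26 ± 0.04, adjusted p = 3.3e-06), and all 4 rose. In KDM6B the DNA methyltransferase Dnmt3a (0.57 ± 0.05, adjusted p = 6.7e-12), the zinc-finger gene Zfp819 (0.99 ± 0.13, adjusted p = 4.1e-07) and Trim24 (0.26 ± 0.04, adjusted p = 7.5e-07) rose, and Ythdc1, a reader of N6-methyladenosine, fell (-0.29 ± 0.04, adjusted p = 3.6e-07). These gene values use TMM scaling alone.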

How the data were processed

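Chromatin-associated RNA of 16 libraries was counted by the authors. Both deposited tables hold raw read counts, per gene and per single repeat copy, made with featureCounts 2.0.3 from reads whose mapping quality reached 30, per the file headers. Mates were counted separately, strand was not used, and reads matching several places or features were not assigned, so near-identical copies are undercounted. The submitters' processing notes name GRCm39 and HISAT2, whose version is not given in the sources used here.

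Library sizes were the TMM effective sizes of the gene table without the 92 ERCC rows. Copies with at least 5 reads in 2 libraries that passed filterByExpr (728423 of 1035541) were fitted with edgeR 4.0.16 in R 4.3.3: quasi-likelihood, robust, trended dispersion, 8 group means, 8 residual degrees of freedom. P-values were Benjamini-Hochberg adjusted over all copies, separately for each of 8 tests (4 deletion contrasts, 2 paralog differences, 8 groups, full-length groups), at 0.05. The SE is the fold change over the root of F. The fit was also run on simulated counts with the same dispersion of 0.05 for every copy. The median trended dispersion of the real copies was 0.083, so that easier setting does not vouch for the calls. Genes (31057) were fitted likewise. The 52 silencing gene names gave 49 tested genes.

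The members, lists and tests were chosen with earlier results of these data known. Members were named by rule: the 8 highest per kb, up to 3 rises and 3 falls per contrast with a mean of at least 20 reads per library in the higher group and groups that did not overlap, 4 over the 8 groups and 2 per paralog difference. The result of 1 member that the rule names is not reported here. Alternatives were ERCC, median-ratio and copy-based scaling, other filters, DESeq2 1.42.0, 4-library fits, a replicate block and leaving out each library. No member sequence was read by position, since a GRCm39 genome was not used here.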

Additional observations from a re-analysis of the deposited data

Results flagged for a closer look

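These results have in common that the effects of 2 paralogous deletions differed in a test of the difference itself (edgeR, adjusted p under 0.05). Values are differences of log2 fold changes. KDM4A minus KDM4B gave 1.11 for the Gm43041 copy, -0.87 for the copy near Arih1, -0.85 for the copy near Zfp982, 0.58 for the EU599041 copy, 1.22 for the copy in Mrs2, -4.39 for the 6330410L21Rik copy, -3.84 for the copy near Vmn2r-ps126, -1.86 for the Gm37924 copy, -2.04 for the copy near Gm25163, 1.87 for the copy near Gm28625 and -2.58 for the copy in Gm9655. The largest adjusted p among these was 0.037 and the smallest 1.4e-28.

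KDM6A minus KDM6B gave -0.68 for the copy near Cnbd1, 0.78 for the copy near Zfp982, -1.49 for the copy near 4930469B13Rik, -1.17 for the Gm37924 copy, -1.75 for the copy near Rpap3, 1.35 for the copy near Dtwd2 and -0.75 for the copy in Gm9655. Their adjusted p ran from 0.0011 to 0.037. The copies near Zfp982, in Gm37924 and in Gm9655 differed in both comparisons.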

How the results depend on the processing

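With ERCC scaling, members called higher and lower were 3 and 590 in KDM4A, 9 and 128 in KDM4B, 2 and 5 in KDM6A and 13 and 94 in KDM6B, and 92 differed between KDM4A and KDM4B, 1113 over the 8 groups and 983 over the full-length groups. With TMM over copies they were 18 and 88 in KDM4A, 4 higher in KDM6A and 34 and 0 in KDM6B, with 207 over the 8 groups and 144 over the full-length groups. The shares of all copies called under these scalings are given above with each deletion contrast and were not made for the other tests. A fit of the 4 KDM6B libraries called 8 lower. Leaving out each library gave 42 to 59 lower in KDM4B, 1 to 4 higher and 0 to 1 lower in KDM6A, 11 to 16 higher and 3 to 14 lower in KDM6B, 5 to 14 between KDM6A and KDM6B and 185 to 302 over the full-length groups. The cause was not tested. All other counts were within 1.5 times of those reported.

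Of 789 recomputed log2 fold changes of 66 called pairs of named member and contrast, 703 kept direction and call, 84 kept the direction without the call and 2 turned, both in KDM4A with ERCC scaling: the Gm43041 copy (-0.044) and the EU599041 copy (-0.31). Of 58 pairs not called, 40 changed sign somewhere. The replicate numbers were not taken as pairs, since no label says that they mark a shared culture or day and not every pair of groups passed 0.1: deviations of same-numbered libraries correlated at -0.0026 to 0.172 between groups, above 0.1 in 15 of 28 pairs of groups. The replicate block gave 10 higher and 190 lower in KDM4A, 10 and 83 in KDM4B, 9 and 2 in KDM6A and 24 and 18 in KDM6B. DESeq2's Wald test has no form for the 8 groups and was run on contrasts only. Depth limits the rest: 651 members tested had a median of 213 reads.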
